A study of Mus musculus with 8 samples.

Results

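The unfolded protein and integrated stress responses were followed through 32 genes, chosen by symbol among the 24419 genes of the count table, in fibroadipogenic progenitors sorted from mouse hindlimb muscle. They comprise 3 sensors of the endoplasmic reticulum (ER), 3 transcription factors, 14 ER chaperones and foldases, 4 genes of ER-associated degradation, 4 amino acid and serine enzymes controlled by ATF4, and 4 stress feedback genes. After the filter on low counts 31 of the 32 were tested, among 13646 genes in all. Chac1 was left out by that filter.

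Fibroadipogenic progenitors are mesenchymal cells of muscle that can form fibroblasts and adipocytes. Male C57BL/6J mice made up all 3 groups. In the miR-27a-KD group (n = 3), KPCY pancreatic tumour cells had been implanted into the pancreas after transduction with a lentiviral vector that inhibits miR-27a-3p. The KPC Scr group (n = 3) received the same tumour cells transduced with a scrambled sequence, and the sham group (n = 2) had surgery without tumour cells. Selection of both tumour lines with puromycin had lasted 7 days at 2 µg/mL, and the cells were injected in 50 µL. The knockdown was therefore in the tumour cells and not in the sorted progenitors, and the labels describe 1 stable line for each construct. The labels used here give neither the age of the mice nor the time of collection. Cells were sorted as negative for CD31, CD45, α7-integrin and propidium iodide and positive for SCA-1 and Hoechst. RNA of integrity number 7 or more was sequenced from stranded mRNA libraries, and the labels call the samples biological replicates.

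The unfolded protein response is the reaction of a cell to misfolded protein in the ER. Its sensors IRE1 (Ern1), ATF6 and PERK (Eif2ak3) lead to the transcription factors XBP1, cleaved ATF6 and ATF4, which raise chaperones, degradation factors and amino acid enzymes. PERK shares its target, the initiation factor eIF2, with kinases that sense lack of amino acids, haem or double-stranded RNA, and this shared branch is called the integrated stress response. Much of the output of connective tissue cells is secreted collagen, which is folded and modified in the ER. Transcript counts per gene show neither the splicing of Xbp1, nor the cleavage of ATF6, nor the phosphorylation of eIF2.

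Total counts ran from 15647436 to 28340450 per library. KPC Scr libraries 1 and 3 stood apart from the rest on the first principal component of log2 CPM over all genes tested, at 115 and 92, while KPC Scr library 2 lay at -12.3, the miR-27a-KD libraries between -39.5 and -32.3 and the sham libraries at -47.7 and -42.1. That component held 61.1% of the variance. The defining progenitor marker Pdgfra, a receptor for PDGF, was present in every library, at 1477, 1449 and 1467 CPM in miR-27a-KD, 1576, 1586 and 1519 CPM in KPC Scr and 1256 and 1588 CPM in sham. Cd34, another progenitor marker, was at 1914, 1925 and 1805 CPM in miR-27a-KD, 213, 1179 and 241 CPM in KPC Scr and 2250 and 2156 CPM in sham. The gene of the targeted microRNA, Mir27a, had 0 reads in the miR-27a-KD libraries, 12, 12 and 3 reads in KPC Scr and 0 reads in sham, but mRNA libraries of the sorted progenitors do not measure the mature microRNA in tumour cells, so this checks nothing. Because KPC Scr library 2 departs from the other 2 libraries of its group, results that rest on it are given with and without it. That choice was made after the values were seen, and it leaves 2 libraries that resemble each other. Calls and adjusted p-values without library 2 therefore describe that subset and cannot be taken as evidence of a difference between the groups.

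The ER stress element is the promoter sequence through which ATF6 and XBP1 act on chaperone genes, and its copies in the chaperone genes are shown. It was searched as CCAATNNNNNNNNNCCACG (ERSE) and, in its second form, as ATTGGNCCACG (ERSE-II), on both strands of the RefSeq promoter windows of GRCm38.p6, from 250 bases before to 50 bases after the start. Of the 32 genes, 29 have such a window (Atf6, Hyou1 and Manf were not matched). ERSE was found in 8 of the 29 genes (27.6%) and in 37 of 27025 genes with a window (0.137%). Of the 12 chaperones with a window, 7 held it (58.3%). The 32 genes were chosen as genes of these responses, so their share is not independent of that choice. Some chaperones were low in KPC Scr libraries 1 and 3, which here means below every miR-27a-KD and sham library. Of the 7 with ERSE, Hsp90b1, Calr, Canx, Pdia6 and Creld2 were low in both, Hspa5 in library 3 only and Dnajc3 in neither. Of those with a window and no ERSE, Pdia3, Pdia4 and Sdf2l1 were low in both, Dnajb11 in library 3 only and Dnajb9 in neither. Only exact matches were searched, and any part of the element in these levels was not tested. The Hspa5 copy lies on the plus strand at chr2:34772020-34772048, that of Hsp90b1 on the minus strand at chr10:86705633-86705661 and that of Calr on the plus strand at chr8:84847070-84847098. Canx has its copy on the minus strand at chr11:50325795-50325823, Pdia6 on the plus strand at chr12:17266486-17266514, Dnajc3 on the plus strand at chr14:118937822-118937850 and Creld2 on the minus strand at chr15:88819515-88819543. The coordinates span the 29 bases printed, and capitals mark the fixed letters of the element.
Hspa5: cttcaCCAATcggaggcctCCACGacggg
Hsp90b1: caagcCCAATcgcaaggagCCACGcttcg
Calr: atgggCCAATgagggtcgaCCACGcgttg
Canx: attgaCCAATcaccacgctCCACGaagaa
Pdia6: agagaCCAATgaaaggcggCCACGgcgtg
Dnajc3: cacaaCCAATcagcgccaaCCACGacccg
Creld2: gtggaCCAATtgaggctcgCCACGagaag

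Hsp90b1 held a second copy on the other strand, and the remaining gene with ERSE was Syvn1, on the plus strand at chr19:6046527-6046555. ERSE-II was found in Dnajb11 and Herpud1 (6.9% of the 29 genes, against 0.0444% of all genes). The Herpud1 copy, shown because this gene takes signals from both the ATF6 and the ATF4 branch, lies on the plus strand at chr8:94386368-94386396.
Syvn1: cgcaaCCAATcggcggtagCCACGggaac
Herpud1: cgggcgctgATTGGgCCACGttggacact

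The shorter CCACG, which is also part of both elements, was in 79.3% of the 29 genes and in 35.5% of all genes. TGACGTGG, a site bound by ATF6 and XBP1, was in none of the 29 genes and in 0.714% of all genes. TTGCATCA, a core of the composite site for ATF4 and its C/EBP partners, was in Herpud1 and Chac1, 6.9% of the 29 genes, against 1.03% of all genes. These matches describe letters within the windows and were not measured as binding.

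None of the 31 genes tested passed the threshold in any of the 3 comparisons (edgeR quasi-likelihood test, Benjamini-Hochberg adjusted p of 0.05 over all genes). Over all genes, 0.0513% were called in miR-27a-KD against KPC Scr, 1.58% in KPC Scr against sham and 0.00733% in miR-27a-KD against sham. At an unadjusted p under 0.05 there were 13 of the 31 in miR-27a-KD against KPC Scr (6 higher and 7 lower, 41.9%, where all genes gave 32.4%). KPC Scr against sham gave 8 (5 higher and 3 lower, 25.8%, where all genes gave 29.2%), and miR-27a-KD against sham gave 0 (all genes 2.37%). DESeq2 called 2 higher (Canx and Pdia3) and 4 lower (Atf4, Dnajb9, Asns and Ppp1r15a) in miR-27a-KD against KPC Scr, with 5.94% and 11.5% of all genes called in those directions. In KPC Scr against sham it called 3 higher (Dnajb9, Asns and Ppp1r15a) and 0 lower, with 9.9% and 5.64% of all genes. In miR-27a-KD against sham it called none of the 31, with 0.176% and 0.00735% of all genes. The first 2 comparisons share the KPC Scr libraries, so a high or low KPC Scr library enters both with opposite sign.

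**Figure D1:**
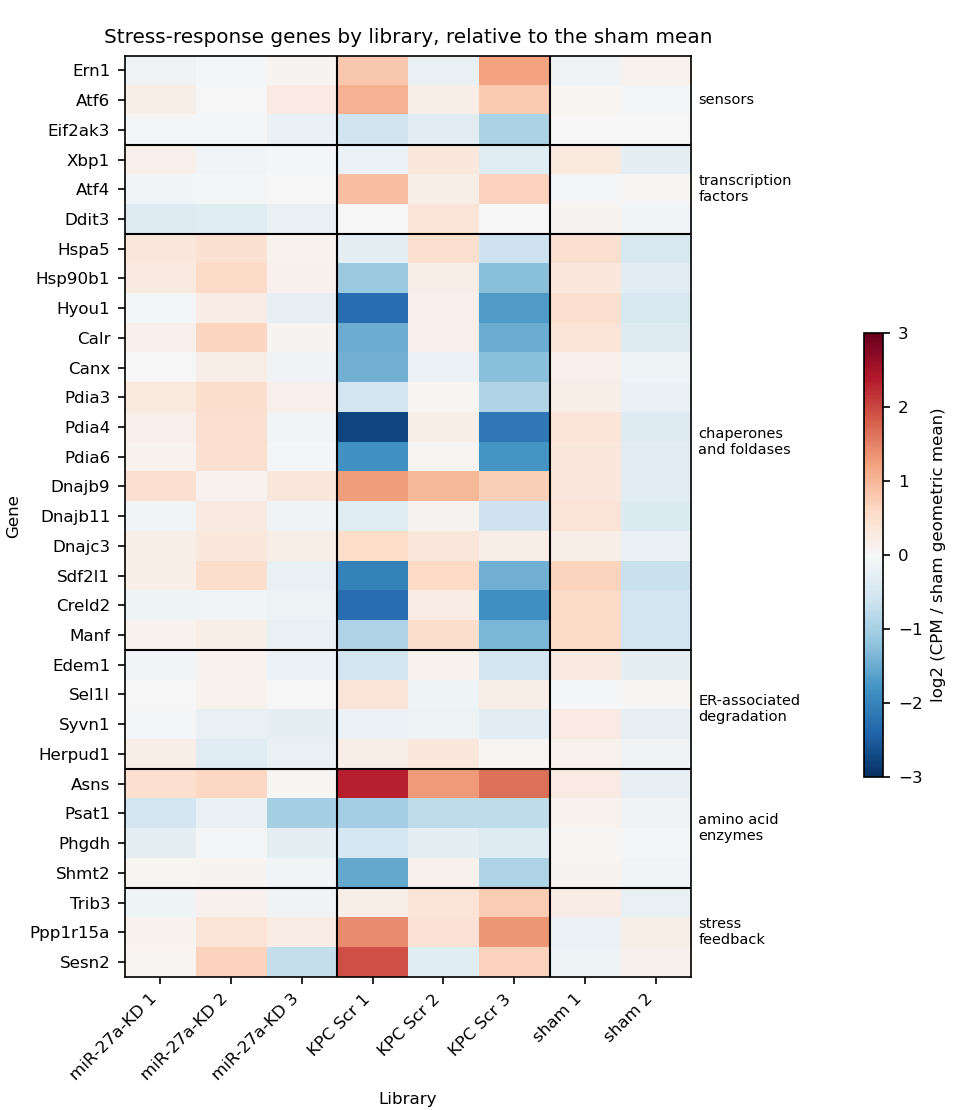
Heat map of the 31 tested genes (down the page, by role) in the 8 libraries (across), coloured by log2 of CPM over the geometric mean of the 2 sham libraries. KPC Scr libraries 1 and 3 are blue through most chaperones, which is not seen in KPC Scr library 2. Asns, Ppp1r15a, Atf4 and Dnajb9 lie above the sham mean in all 3 KPC Scr libraries, by little for Atf4 and Ppp1r15a in library 2.

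Among the sensors, Ern1 and Atf6 lay above the 5 miR-27a-KD and sham libraries in KPC Scr libraries 1 and 3 and not in 2, and Eif2ak3 lay below them in all 3 KPC Scr libraries. Values are normalised CPM, given in the order of the replicate numbers. Ern1, the kinase and endoribonuclease IRE1 that splices Xbp1, was at 28.9, 29.7 and 32.8 CPM in miR-27a-KD, 54.3, 26.6 and 71.3 CPM in KPC Scr and 29.0 and 33.4 CPM in sham. KPC Scr library 2 was the lowest of the 8 for this gene and libraries 1 and 3 the highest, so the groups overlapped. The log2 fold change of Ern1 was -0.73 ± 0.31 (SE) in miR-27a-KD against KPC Scr (edgeR adjusted p = 0.142) and 0.70 ± 0.35 in KPC Scr against sham (adjusted p = 0.21).

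Atf6, the membrane-bound transcription factor released by cleavage in the Golgi, was at 78.1, 69.5 and 81.7 CPM in miR-27a-KD, 143, 78.9 and 120 CPM in KPC Scr and 72 and 66.6 CPM in sham. All 3 KPC Scr libraries were above both sham libraries, but library 2 lay within the miR-27a-KD range. Its log2 fold change was -0.58 ± 0.21 in miR-27a-KD against KPC Scr (edgeR adjusted p = 0.114) and 0.72 ± 0.24 in KPC Scr against sham (adjusted p = 0.113). Eif2ak3, the kinase PERK that phosphorylates eIF2 under ER stress, was at 83.2, 82.8 and 74.6 CPM in miR-27a-KD, 56.8, 68.6 and 44.9 CPM in KPC Scr and 87.3 and 85.1 CPM in sham. All 3 KPC Scr libraries were below all 5 others. The log2 fold change was 0.50 ± 0.17 in miR-27a-KD against KPC Scr (edgeR adjusted p = 0.104) and -0.60 ± 0.19 in KPC Scr against sham (adjusted p = 0.104). Without KPC Scr library 2, all 3 sensors passed the threshold in miR-27a-KD against KPC Scr, where 54% of all genes did, and in KPC Scr against sham, where 51% did, with log2 changes against sham of 1.01 for Ern1, 0.93 for Atf6 and -0.75 for Eif2ak3.

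Of the transcription factors, Atf4 was higher in every KPC Scr library than in any other library, while Xbp1 overlapped between all groups. Atf4, the factor translated when eIF2 is phosphorylated and the main activator of the integrated stress response, was at 337, 349 and 353 CPM in miR-27a-KD, 666, 404 and 581 CPM in KPC Scr and 348 and 369 CPM in sham. The 5 libraries outside KPC Scr lay within 337 to 369 CPM. The log2 fold change of Atf4 was -0.67 ± 0.20 in miR-27a-KD against KPC Scr (edgeR adjusted p = 0.0814) and 0.62 ± 0.22 in KPC Scr against sham (adjusted p = 0.124). In miR-27a-KD against KPC Scr, Atf4 passed the threshold with DESeq2 (adjusted p = 0.0179), which called 11.5% of all genes lower. It also passed without KPC Scr library 2 (-0.86, edgeR adjusted p = 0.000174), where 54% of all genes did. These were the only 2 of the 17 alternatives that called it.

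Ddit3, the factor CHOP that ATF4 induces in prolonged stress, was at 18.7, 18.9 and 20.9 CPM in miR-27a-KD, 23.9, 31.8 and 24.6 CPM in KPC Scr and 25.7 and 22.9 CPM in sham. All 3 miR-27a-KD libraries were below the other 5, and KPC Scr overlapped with sham. Its log2 fold change was -0.46 ± 0.18 in miR-27a-KD against KPC Scr (edgeR adjusted p = 0.125) and -0.32 ± 0.20 in miR-27a-KD against sham (adjusted p = 1). The annotation holds 2 entries for Ddit3 that share exons, and the count could not be divided between them. Xbp1, the factor made active by IRE1 splicing, was at 202, 170 and 174 CPM in miR-27a-KD, 161, 226 and 142 CPM in KPC Scr and 221 and 148 CPM in sham. Its log2 fold change was 0.05 ± 0.22 in miR-27a-KD against KPC Scr and -0.07 ± 0.25 in KPC Scr against sham, within the spread between replicates.

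The chaperones and foldases were the role group in which the KPC Scr libraries differed most from each other. Summed over the 14 genes, their level was 5007, 6041 and 4525 CPM in miR-27a-KD, 2465, 5053 and 2147 CPM in KPC Scr and 5582 and 3396 CPM in sham. KPC Scr libraries 1 and 3 were below every other library, and library 2 was within the range of both other groups. The median of their per-gene log2 level, relative to the sham mean, was 0.15, 0.38 and -0.07 in miR-27a-KD, -1.28, 0.18 and -1.30 in KPC Scr and 0.38 and -0.38 in sham. The highest over the lowest library within KPC Scr had a median ratio of 2.88 over the 14 genes and of 1.83 over all genes tested. Within miR-27a-KD this ratio was 1.31 for the chaperones and 1.23 for all genes, and within sham it was 1.70 and 1.18, so the sham libraries also differed from each other in these genes.

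The smallest p-values among the chaperones were those of Dnajb9, Pdia3 and Canx. Dnajb9, the co-chaperone ERdj4 that binds BiP and restrains IRE1, was at 44.2, 34.5 and 40.6 CPM in miR-27a-KD, 76.2, 63.7 and 52.6 CPM in KPC Scr and 40.4 and 25.1 CPM in sham. It was above all 5 other libraries in every KPC Scr library, against the direction of most other chaperones. Its log2 fold change was -0.69 ± 0.22 in miR-27a-KD against KPC Scr (edgeR adjusted p = 0.0899) and 0.98 ± 0.26 in KPC Scr against sham (adjusted p = 0.0761). With KPC Scr library 2 as the only library of its group, the change of Dnajb9 against sham was 0.97, close to the value over all 3.

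Canx, the membrane lectin calnexin that holds newly made glycoproteins, was at 317, 363 and 293 CPM in miR-27a-KD, 116, 280 and 134 CPM in KPC Scr and 350 and 286 CPM in sham. All 3 KPC Scr libraries were below the other 5, library 2 by a small margin. Its log2 fold change was 0.88 ± 0.31 in miR-27a-KD against KPC Scr (edgeR adjusted p = 0.105) and -0.85 ± 0.34 in KPC Scr against sham (adjusted p = 0.148). Pdia3, the disulfide isomerase ERp57 that works with calnexin and calreticulin, was at 627, 742 and 575 CPM in miR-27a-KD, 348, 533 and 275 CPM in KPC Scr and 593 and 445 CPM in sham. All 3 KPC Scr libraries were below all 3 miR-27a-KD libraries, and library 2 lay between the sham libraries. Pdia3 had a log2 fold change of 0.75 ± 0.26 in miR-27a-KD against KPC Scr (edgeR adjusted p = 0.1) and -0.43 ± 0.29 in KPC Scr against sham (adjusted p = 0.32).

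Pdia4, Calr, Pdia6 and Hyou1 are given in full because, after their values were seen, they showed the split within KPC Scr plainly. Pdia4, the disulfide isomerase ERp72, was at 179, 227 and 151 CPM in miR-27a-KD, 23.9, 182 and 36.0 CPM in KPC Scr and 209 and 123 CPM in sham. Calr, the soluble lectin calreticulin, was at 853, 1203 and 819 CPM in miR-27a-KD, 275, 849 and 275 CPM in KPC Scr and 1001 and 592 CPM in sham. Pdia6, a disulfide isomerase that associates with BiP, was at 275, 361 and 249 CPM in miR-27a-KD, 72.6, 265 and 75.3 CPM in KPC Scr and 329 and 202 CPM in sham. In all of these, KPC Scr libraries 1 and 3 were the lowest of the 8, and library 2 lay among the miR-27a-KD and sham libraries. Hyou1, which recharges BiP by nucleotide exchange, was at 156, 188 and 137 CPM in miR-27a-KD, 33.3, 179 and 50.1 CPM in KPC Scr and 226 and 116 CPM in sham, in the same arrangement.

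**Figure D2:**
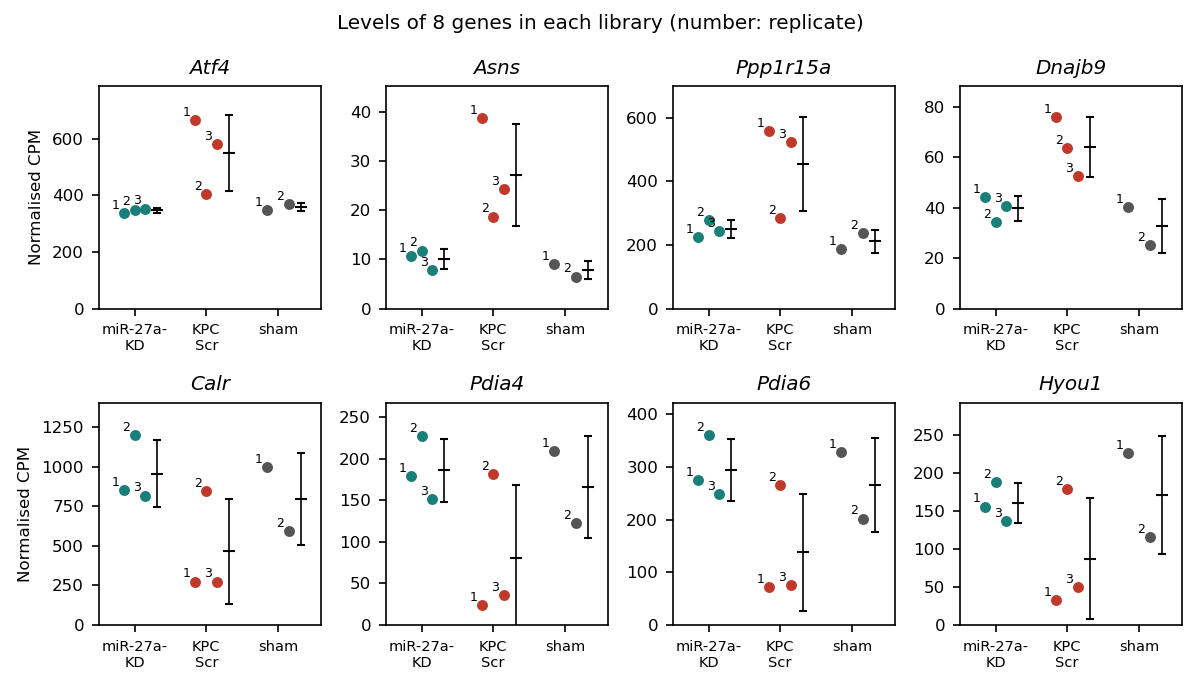
Normalised CPM of 8 genes in each library, with replicate numbers beside the points and the mean ± SD of each group at its right (n = 3 miR-27a-KD, n = 3 KPC Scr, n = 2 sham; bars are cut off at 0). In the upper row all KPC Scr points lie above the others, by little for library 2 of Atf4 and Ppp1r15a; in the lower row KPC Scr libraries 1 and 3 are lowest and library 2 is not.

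The remaining chaperones differed among themselves, and Dnajc3 was not low in KPC Scr libraries 1 and 3. Hspa5, the chaperone BiP whose release starts all 3 branches, was at 1083, 1159 and 908 CPM in miR-27a-KD, 703, 1194 and 551 CPM in KPC Scr and 1182 and 611 CPM in sham. Sham library 2 was thus as low as KPC Scr libraries 1 and 3, and the log2 fold change of Hspa5 was 0.36 ± 0.33 in miR-27a-KD against KPC Scr and -0.14 ± 0.37 in KPC Scr against sham. Hsp90b1, the ER form of HSP90 known as GRP94, was at 965, 1195 and 880 CPM in miR-27a-KD, 368, 906 and 339 CPM in KPC Scr and 1022 and 629 CPM in sham. Of its exonic bases, 10.3% overlap 1810014B01Rik on the opposite strand, and whether the counting used strand is not stated in these sources. Sdf2l1, Creld2 and Manf, which are BiP partners or secreted stress proteins, had log2 changes in miR-27a-KD against KPC Scr of 0.67, 0.74 and 0.37 with standard errors of 0.62, 0.58 and 0.47. Their levels were widely split within KPC Scr, as for Creld2 at 46.2, 48.3 and 46.2 CPM in miR-27a-KD, 10.4, 59.6 and 14.2 CPM in KPC Scr and 75.8 and 34.3 CPM in sham. Dnajb11 and Dnajc3, co-chaperones of BiP, were at 0.30 and -0.14 in the same comparison.

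Over the 14 chaperones the median log2 change was 0.74 in miR-27a-KD against KPC Scr and -0.62 in KPC Scr against sham, where the median over all genes was 0.01 and 0.00. Relative to the 5 miR-27a-KD and sham libraries, KPC Scr library 1 was below all of them in 10 of the 14 chaperones (71.4%, where all genes gave 40.6%). KPC Scr library 3 was below all of them in 12 of the 14 (85.7%, all genes 38.6%), and KPC Scr library 2 in 1 of the 14 (7.14%, all genes 21.3%). Without KPC Scr library 2, edgeR called 11 of the 14 higher and 1 lower in miR-27a-KD against KPC Scr, where 27.3% and 26.6% of all genes were called in those directions. In KPC Scr against sham it then called 10 of the 14 lower and 1 higher, where 25.6% and 25.4% of all genes were. The log2 changes of these against sham reached -2.48 ± 0.31 for Pdia4, -2.18 ± 0.34 for Creld2 and -2.04 ± 0.33 for Hyou1, and the gene called higher was Dnajb9 at 1.00 ± 0.24. With KPC Scr library 2 as the only KPC Scr library, the same 3 genes were at 0.14, 0.12 and 0.07.

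Some progenitor markers were also low in KPC Scr libraries 1 and 3, and others, Pdgfra among them, were not. Over 10 such markers, all tested, none was called, and they had a median log2 change of 0.77 in miR-27a-KD against KPC Scr and -0.69 in KPC Scr against sham, with 4 positive and 6 negative in the second comparison. Their summed level was 105444, 98797 and 99430 CPM in miR-27a-KD, 106273, 99801 and 77032 CPM in KPC Scr and 106317 and 106151 CPM in sham. That sum was low only in KPC Scr library 3, but it is weighted heavily by 1 marker, Gsn. Gsn alone held 6.74% of the counts of KPC Scr library 1 and 5% of those of library 3. The sum therefore says little about the other markers. Relative to the sham mean, their median was 0.00, 0.02 and -0.08 in miR-27a-KD, -0.97, -0.08 and -1.54 in KPC Scr and 0.03 and -0.03 in sham. Col3a1, a fibrillar collagen that these cells secrete, was at 13717, 19386 and 14230 CPM in miR-27a-KD, 990, 10123 and 974 CPM in KPC Scr and 22477 and 13185 CPM in sham. KPC Scr libraries 1 and 3 were thus lowest for Col3a1 as well, and the part of this shift in the chaperone values was not tested. In sorted cells measured in bulk, fewer cells of a type and less RNA per cell cannot be told apart.

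ER-associated degradation, which returns misfolded protein to the cytosol, showed no comparable split in the median of its 4 genes. Edem1, which marks misfolded glycoproteins for disposal, was at 77.1, 87.7 and 72.6 CPM in miR-27a-KD, 56.3, 88.2 and 54.8 CPM in KPC Scr and 98.2 and 68.4 CPM in sham. Only Edem1 of the 4 genes was called without KPC Scr library 2, at 0.50 in miR-27a-KD against KPC Scr and -0.57 in KPC Scr against sham. Of all genes, 54% and 51% were called in those comparisons without that library. Herpud1, an ER membrane protein that assembles the degradation complex, was at 149, 101 and 112 CPM in miR-27a-KD, 150, 161 and 133 CPM in KPC Scr and 140 and 120 CPM in sham. Syvn1, the ubiquitin ligase HRD1, was at 65.7, 58.7 and 56.6 CPM in miR-27a-KD, 61.0, 61.9 and 54.8 CPM in KPC Scr and 81.3 and 57.6 CPM in sham. Both overlapped between all groups, with log2 changes in miR-27a-KD against KPC Scr of -0.30 ± 0.18 for Herpud1 and 0.03 ± 0.17 for Syvn1. Sel1l, the partner of HRD1, was at -0.13 ± 0.16 in that comparison and 0.17 ± 0.18 in KPC Scr against sham.

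The ATF4-controlled enzymes did not share a direction. Asns, which makes asparagine and is a classical ATF4 target, was at 10.7, 11.8 and 7.78 CPM in miR-27a-KD, 38.7, 18.7 and 24.2 CPM in KPC Scr and 9.05 and 6.47 CPM in sham. Every KPC Scr library was above the other 5, library 2 included. Asns had a log2 fold change of -1.44 ± 0.31 in miR-27a-KD against KPC Scr (edgeR adjusted p = 0.0689) and 1.82 ± 0.37 in KPC Scr against sham (adjusted p = 0.0514), the nearest to the threshold of the 31 genes in both.

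Asns was called in KPC Scr against sham under 4 of the 17 alternatives, and its adjusted p ran from 0.000173 to 0.343 over them. It was called with DESeq2 (adjusted p = 0.00018), which called 9.9% of all genes higher, and with no filter on low counts (0.0434, edgeR). It was also called without KPC Scr library 2 (log2 change 2.05, edgeR adjusted p = 0.000173), where 51% of all genes were. The remaining call came with that library as the only KPC Scr library, where the log2 change was 1.28. In that last fit the lone library is assumed to vary like the other groups. In miR-27a-KD against KPC Scr, Asns was called under 2 of the 17, with the adjusted p between 0.000173 and 0.236. Its direction was the same under all 17 in both comparisons.

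Psat1 and Phgdh, the serine synthesis enzymes that ATF4 also controls, lay on the other side. Psat1 was at 8.16, 10.5 and 6.04 CPM in miR-27a-KD, 5.99, 7.10 and 7.12 CPM in KPC Scr and 13.1 and 11.2 CPM in sham. The KPC Scr libraries were below both sham libraries and overlapped with miR-27a-KD. Its log2 fold change was 0.29 ± 0.27 in miR-27a-KD against KPC Scr (edgeR adjusted p = 0.457) and -0.85 ± 0.29 in KPC Scr against sham (adjusted p = 0.114). Phgdh was at 14.4, 17.4 and 14.7 CPM in miR-27a-KD, 12.3, 14.5 and 13.5 CPM in KPC Scr and 18 and 17.3 CPM in sham, with a log2 change of -0.40 ± 0.20 in KPC Scr against sham. Shmt2, which turns serine into glycine in mitochondria, resembled the chaperones, at 36.1, 36.6 and 32.9 CPM in miR-27a-KD, 11.9, 37.7 and 18.2 CPM in KPC Scr and 36.6 and 32.8 CPM in sham. KPC Scr libraries 1 and 3 were the lowest for Shmt2 and library 2 the highest of the 8.

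In the stress feedback group Ppp1r15a resembled Atf4 and Asns. Ppp1r15a, the phosphatase subunit GADD34 that removes phosphate from eIF2 and ends the response, was at 224, 279 and 244 CPM in miR-27a-KD, 557, 285 and 522 CPM in KPC Scr and 186 and 237 CPM in sham. All 3 KPC Scr libraries were above the other 5, but library 2 exceeded the highest miR-27a-KD library by little. Ppp1r15a had a log2 fold change of -0.87 ± 0.26 in miR-27a-KD against KPC Scr (edgeR adjusted p = 0.0805) and 1.11 ± 0.29 in KPC Scr against sham (adjusted p = 0.0783). With library 2 as the only KPC Scr library the change against sham was 0.44. Without that library Ppp1r15a was called (edgeR adjusted p = 5.2e-05), where 51% of all genes were. DESeq2 with all 8 libraries also called it (adjusted p = 0.00653), with 9.9% of all genes called higher. Over the 17 alternatives its adjusted p in that comparison ran from 5.2e-05 to 0.422.

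Trib3, a pseudokinase that damps ATF4, was at 6.36, 7.65 and 6.47 CPM in miR-27a-KD, 7.88, 9.34 and 11.8 CPM in KPC Scr and 8.10 and 6.03 CPM in sham. The KPC Scr libraries were above all 3 miR-27a-KD libraries and overlapped with sham. Sesn2, an inhibitor of mTORC1, was at 4.05, 6.31 and 2.36 CPM in miR-27a-KD, 14.7, 3.00 and 6.23 CPM in KPC Scr and 3.54 and 4.24 CPM in sham. Its standard errors were wide, with log2 changes of -0.95 ± 0.57 in miR-27a-KD against KPC Scr and 1.05 ± 0.67 in KPC Scr against sham. Chac1, which breaks down glutathione, had 2, 0 and 0 reads in miR-27a-KD, 6, 2 and 4 reads in KPC Scr and 1 and 0 reads in sham. A count of 0 allows up to 3 reads, and Chac1 was not tested, so its counts neither show nor exclude a difference at this depth.

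**Figure D3:**
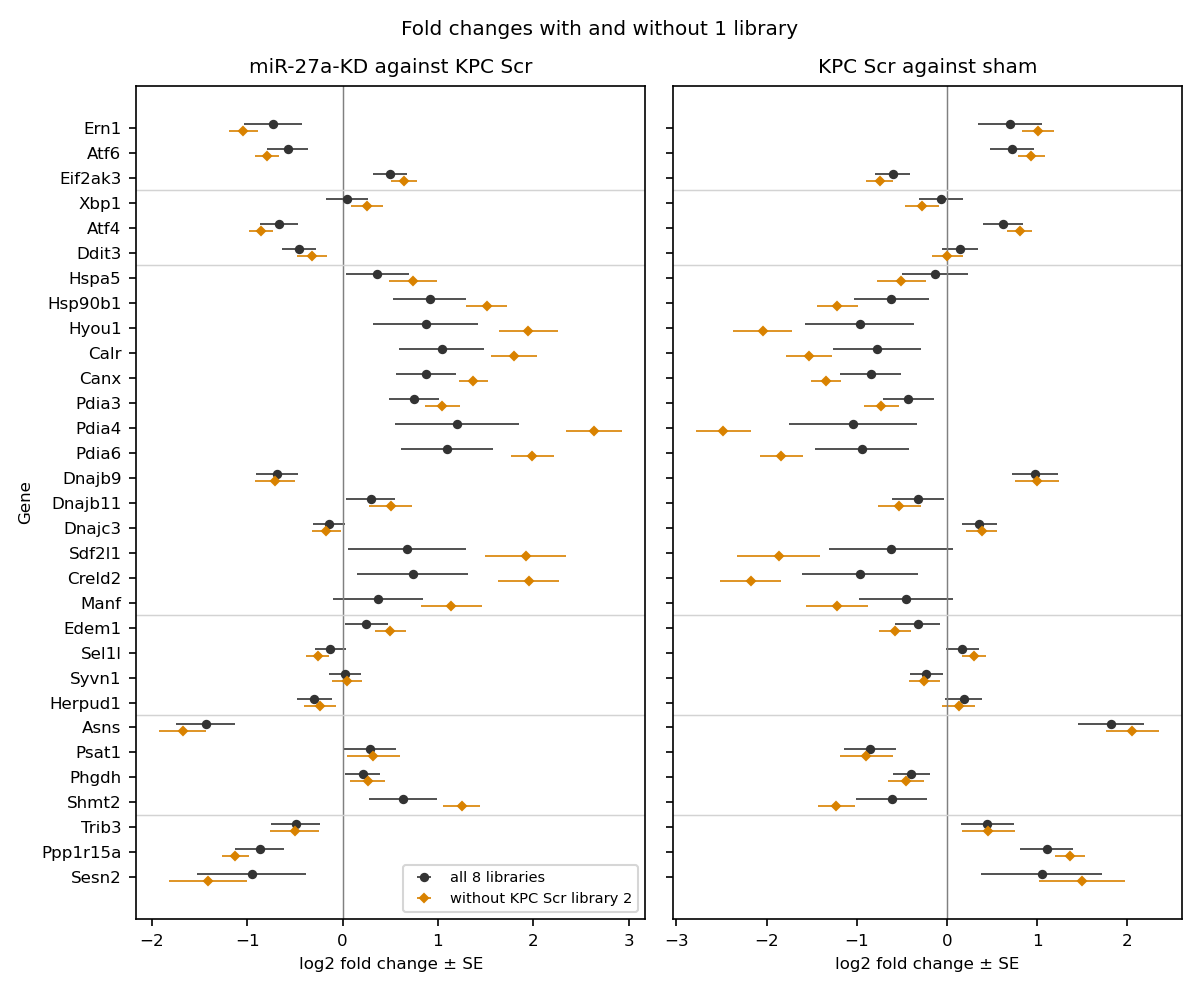
Log2 fold changes ± SE of the 31 tested genes in miR-27a-KD against KPC Scr (left) and KPC Scr against sham (right), for all 8 libraries (black circles) and without KPC Scr library 2 (orange diamonds). Most chaperones lie further from 0 without that library, while Dnajb9, Dnajc3, Syvn1, Psat1, Phgdh and Trib3 move little.

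Among all 31 tested genes, 4 were above the 5 miR-27a-KD and sham libraries in all 3 KPC Scr libraries (Atf4, Dnajb9, Asns and Ppp1r15a, 12.9%) and 2 were below them (Eif2ak3 and Canx, 6.45%). Over all genes tested these shares were 12% above and 12.8% below, so the counts are near the background of the table. The median log2 change over the 31 genes was 0.25 in miR-27a-KD against KPC Scr, -0.32 in KPC Scr against sham and 0.02 in miR-27a-KD against sham. Without KPC Scr library 2, 21 of the 31 were called in miR-27a-KD against KPC Scr (14 higher and 7 lower), where 54% of all genes were called. In KPC Scr against sham, 21 of the 31 were called as well (7 higher and 14 lower), where 51% of all genes were.

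In miR-27a-KD against sham, every one of the 31 genes had an adjusted p of 1 (edgeR), and no log2 change lay further from 0 than the -0.57 ± 0.29 of Psat1. Asns was at 0.38 ± 0.37 there, Ppp1r15a at 0.24 ± 0.29, Atf4 at -0.05 ± 0.22 and Hspa5 at 0.23 ± 0.37. The widest standard error of the 31 in that comparison was that of Pdia4, at 0.16 ± 0.72. The spread in this fit is taken over all 8 libraries, so the split within KPC Scr enters these standard errors and adjusted p-values. With the 2 compared groups alone 0 of the 31 genes were called, while the calls over all genes went from 1 to 101.

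Genes of the same pathways outside the 32 gave 2 calls, both in KPC Scr against sham. Of 26 other ATF4 targets and partners tested, Cebpb was called higher and Pycr1 lower, where 1.58% of all genes were called. At an unadjusted p under 0.05 there were 15 of the 26 (11 higher and 4 lower, 57.7%, where all genes gave 29.2%), and DESeq2 called 10 higher and 4 lower, with 9.9% and 5.64% of all genes called in those directions. In 9 of the 26 all 3 KPC Scr libraries were above the 5 others (34.6%, all genes 12%), and in 4 they were below them (15.4%, all genes 12.8%). Cebpb, a partner of ATF4 in target binding, was at 185, 155 and 173 CPM in miR-27a-KD, 856, 268 and 563 CPM in KPC Scr and 130 and 110 CPM in sham. Its log2 change in KPC Scr against sham was 2.23 ± 0.42 (edgeR adjusted p = 0.0431). Pycr1, a proline synthesis enzyme, was at 3.70, 8.04 and 3.89 CPM in miR-27a-KD, 0.196, 1.14 and 0.063 CPM in KPC Scr and 10.9 and 5.02 CPM in sham, a log2 change in KPC Scr against sham of -3.96 ± 0.74 (edgeR adjusted p = 0.0415). All 3 KPC Scr libraries were apart from the 5 others in both. Eif4ebp1, a translation inhibitor, and Mthfd2, a mitochondrial folate enzyme, did not pass, at log2 changes in KPC Scr against sham of 1.47 (edgeR adjusted p = 0.0668) and -1.58 (adjusted p = 0.0643). Mthfd2 was singled out after its values were seen.

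None of 15 genes of the eIF2 kinases, phosphatase and eIF2B passed in either KPC Scr comparison, nor any of 20 cytosolic aminoacyl-tRNA synthetases, which ATF4 induces in many cells. At an unadjusted p under 0.05 in KPC Scr against sham (edgeR), 2 eIF2 genes were higher and 1 lower (20%), and 2 synthetases were lower (10%), where all genes gave 29.2%. The median log2 change in KPC Scr against sham was 0.12 for the eIF2 list and -0.08 for the synthetases. Ppp1cc, a catalytic subunit that works with GADD34, was at 0.57 ± 0.18 there, and the double-stranded RNA kinase Eif2ak2 at -0.90 ± 0.29. Eif2ak4, another eIF2 kinase, was singled out after its values were seen, at 1.44 ± 0.46 (edgeR adjusted p = 0.103). It was at 19.6, 21.7 and 18.7 CPM in miR-27a-KD, 68.4, 19.5 and 51.1 CPM in KPC Scr and 13.5 and 20.5 CPM in sham. Its KPC Scr library 2 thus lay within the range of both other groups. Among the synthetases, Aars was at -0.53 ± 0.17 and Farsa at 0.33 ± 0.22.

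In 3 lists of the wider secretory path KPC Scr libraries 1 and 3 had the lowest medians of the 8, and none of their genes was called with all 8 libraries. The 19 other ER chaperones and oxidoreductases tested had a median log2 change of 0.55 in miR-27a-KD against KPC Scr and -0.55 in KPC Scr against sham. For 16 genes of the translocon and signal peptidase these medians were 0.42 and -0.39, and for 20 genes of ER to Golgi transport 0.45 and -0.49. Relative to the sham mean, the median of the transport list was -0.58, -0.08 and -0.83 in the KPC Scr libraries. Without KPC Scr library 2, edgeR called 14 of the 19, 9 of the 16 and 11 of the 20 lower in KPC Scr against sham. It called 0, 1 and 2 higher, where 25.6% of all genes were called lower and 25.4% higher. With all libraries DESeq2 called 3, 1 and 4 lower and 0, 0 and 1 higher in that comparison, with 5.64% and 9.9% of all genes. KPC Scr library 2 was itself below all 5 miR-27a-KD and sham libraries in 26.3%, 31.2% and 40% of these lists, against 7.14% of the 14 chaperones and 21.3% of all genes. Fkbp14, a prolyl isomerase for collagen, was at a log2 change of 1.74 ± 0.43 in miR-27a-KD against KPC Scr and -1.83 ± 0.47 in KPC Scr against sham (edgeR adjusted p = 0.0728 and 0.0729). Rcn3, a calcium-binding ER protein of collagen-making cells, was at 1.41 ± 0.45 and -1.52 ± 0.48 in the same comparisons.

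Tram1, of the translocon, was at 0.87 ± 0.28 in miR-27a-KD against KPC Scr and -1.04 ± 0.31 in KPC Scr against sham, and Ssr1 at 0.51 ± 0.17 and -0.46 ± 0.19. Sec23a, a coat protein of the vesicles that leave the ER, was at 0.96 ± 0.25 and -0.99 ± 0.28, and Sec24d at 0.66 ± 0.19 and -0.65 ± 0.21. Unlike most chaperones, Sec23a and Sec24d were below all 5 other libraries in KPC Scr library 2 as well, and 8 of the 20 transport genes were so in all 3 KPC Scr libraries (40%, all genes 12.8%). Creb3l1, an ER-bound transcription factor for collagen secretion among 11 other transducers and proteases tested, was at 166, 242 and 196 CPM in miR-27a-KD, 48.3, 132 and 37.0 CPM in KPC Scr and 252 and 203 CPM in sham. Its log2 change was 1.47 ± 0.42 in miR-27a-KD against KPC Scr and -1.65 ± 0.46 in KPC Scr against sham (edgeR adjusted p = 0.0785 and 0.0823). Mbtps2, a protease that cleaves ATF6, was at -0.19 ± 0.29 and 0.78 ± 0.34.

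The 16 other genes of ER-associated degradation were not called and had medians near 0, at -0.04 in miR-27a-KD against KPC Scr and 0.16 in KPC Scr against sham. Os9, a lectin of the degradation path, was at -0.48 ± 0.15 and 0.55 ± 0.17, and Aup1 at -0.42 ± 0.14 and 0.31 ± 0.16. The 16 cytosolic heat shock genes were not called either, with medians of -0.01 and -0.15. Hspa1b, an inducible HSP70, was at 710, 817 and 797 CPM in miR-27a-KD, 1384, 677 and 819 CPM in KPC Scr and 1477 and 1405 CPM in sham. Its near-identical copy Hspa1a can share reads with it. Hsph1, which recharges HSP70, was at 0.56 ± 0.23 and -1.04 ± 0.25. In miR-27a-KD against sham, 14 of the 16 heat shock genes had a negative log2 change and 2 a positive one (median -0.18). All miR-27a-KD libraries were below both sham libraries in 9 of the 16 (56.2%, all genes 13.5%) and above them in 2 (12.5%, all genes 13.8%).

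**Figure D4:**
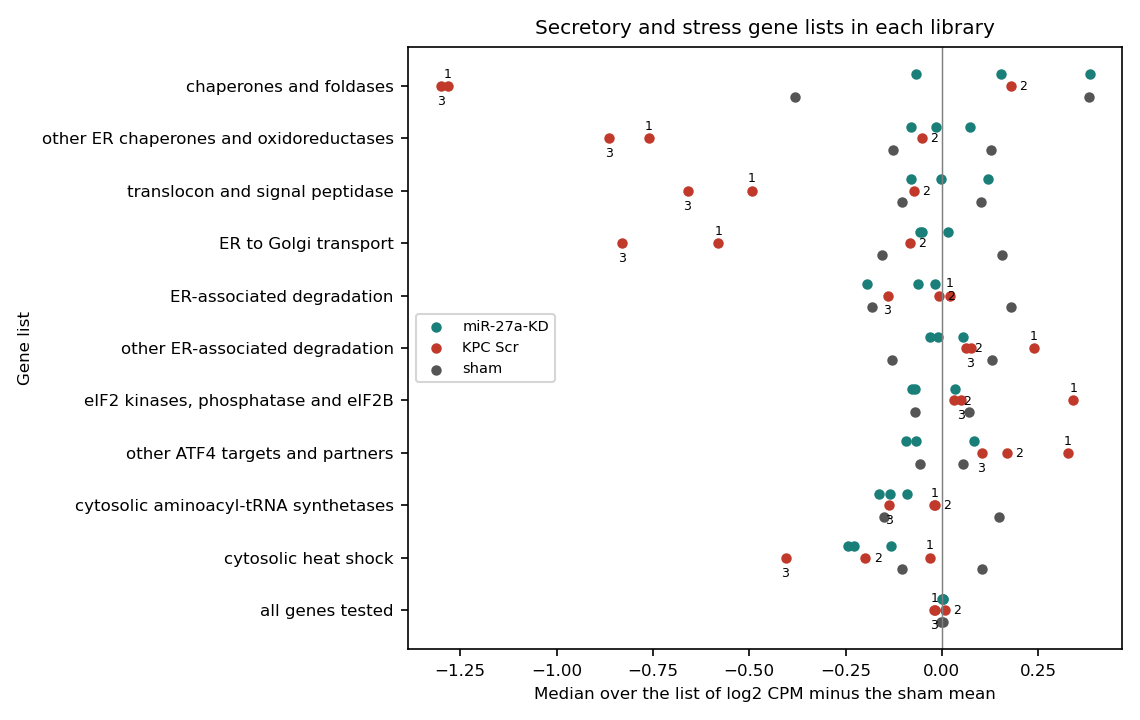
Median over each gene list of log2 CPM minus the sham mean, with 1 point for each library (miR-27a-KD, KPC Scr with its replicate numbers, and sham). KPC Scr libraries 1 and 3 lie left of all others for the chaperones, the other ER chaperones, the translocon and the transport list, and not for the 2 degradation lists, the eIF2 list, the other ATF4 targets or the synthetases.

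Markers of other cell types also differed between the KPC Scr libraries and the rest. Summed over 10 mature adipocyte markers the level was 4.72 to 18.8 CPM in miR-27a-KD, 24.3 to 56.7 CPM in KPC Scr and 1.33 to 5.91 CPM in sham. Of the 7 tested, 1 was called higher in KPC Scr against sham (Plin4, log2 change 3.59 ± 0.59, edgeR adjusted p = 0.03), where 1.58% of all genes were called. The list lies near the floor, with 8 and 3 of the 10 at 0 reads in the sham libraries. Whether some passed the filter only through KPC Scr was not examined. Of that list, Adipoq had 0, 0 and 7 reads in miR-27a-KD, 16, 12 and 14 reads in KPC Scr and 0 and 1 reads in sham, and Lep had 0 reads in all 8 libraries. The 10 muscle fibre markers summed to 52.3 to 69.5 CPM in miR-27a-KD, 87.7 to 313 CPM in KPC Scr and 35.4 to 74.1 CPM in sham, none called and none at 0. Both sums were higher in all 3 KPC Scr libraries than in the other 5. By the median over the muscle fibre markers, relative to the sham mean, KPC Scr library 1 was at 0.27, below 2 miR-27a-KD libraries and sham library 2. The part of these cells in the values of Atf4, Asns, Ppp1r15a and Dnajb9 was not tested.

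Endothelial markers, which the gate should remove, summed to 524 to 613 CPM in miR-27a-KD, 423 to 516 CPM in KPC Scr and 533 to 557 CPM in sham, with 0 of 10 called. Gene by gene, 8 of the 10 had a positive log2 change in KPC Scr against sham (median 0.43), and 5 were called higher and 1 lower without KPC Scr library 2, with 25.4% and 25.6% of all genes. Macrophage markers summed to 19.5 to 56.1 CPM, 28.4 to 51.6 CPM and 21.8 to 25.3 CPM in the same order of groups, with 0 of 9 called, and neutrophil markers to 2.49 to 4.88 CPM, 3.72 to 19.4 CPM and 0.112 to 3.29 CPM, with 0 of 5 called. Plasma and B cells, which secrete much protein, left at most 0.525 CPM in any library over the 7 markers of that list in the count table. Epithelial tumour markers summed to 6.67 to 9.88 CPM in miR-27a-KD, 4.41 to 19.8 CPM in KPC Scr and 6.25 to 10.3 CPM in sham, with 0 of 4 called. Epcam had 9, 8 and 0 reads in miR-27a-KD, 103, 0 and 3 reads in KPC Scr and 0 reads in both sham libraries. Muscle stem cell markers summed to 118 to 149 CPM in miR-27a-KD, 75.0 to 141 CPM in KPC Scr and 131 CPM in both sham libraries, tenocyte markers to 1811 to 2528, 1411 to 2136 and 2050 to 2254 CPM, and pericyte and smooth muscle markers to 266 to 344, 174 to 289 and 257 to 277 CPM in the same order. They gave 0 calls of 6, 10 and 10 tested in KPC Scr against sham. Of the tenocyte markers, 9 of 10 had a negative log2 change there (median -1.29), and of the pericyte and smooth muscle markers 8 of 10 had a positive one (median 1.02). Over all 13646 genes, 6836 were positive and 6809 negative. Relative to the sham mean, the tenocyte median was -0.74, -0.36 and -2.47 in the KPC Scr libraries, lowest by far in library 3, and -0.62 and 0.62 in sham. For the pericyte and smooth muscle markers it was 0.49, 0.82 and 1.34 in KPC Scr.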

How the data were processed

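The authors deposited a table of unnormalised read counts by gene symbol for 8 libraries. The submitters' processing notes name the build mm10 and list STAR, Bowtie, bcl2fastq 2.20, R 4.2.1 and DESeq2 1.36.0 without roles. Neither the annotation nor the strand setting of the counting is stated in these sources. Symbols were matched to GENCODE M21 on GRCm38, the same build, with 95.5% of the 24419 symbols matched once.

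The counts were analysed in R 4.3.3 with edgeR 4.0.16. Genes passed filterByExpr (at least 10 reads, total at least 15), libraries were scaled by TMM, and a robust quasi-likelihood fit used 3 group means over all 8 libraries. Tests were two-sided. CPM use TMM-scaled library sizes. Standard errors of log2 changes were derived as the absolute change over the root of F. The fit was tested on simulated data, but the outcome is not given here and is not used as support for any result. The 17 alternatives left out each library, left out 2 KPC Scr libraries together, or changed the scaling, filter, tool (DESeq2 1.42.0, limma-voom 3.58.1, legacy edgeR), groups fitted or replicate block.

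All 32 genes are named. Values by library are given for sensors, transcription factors and the 3 genes with the smallest p in each other role group. From each wider list up to 4 called genes, or otherwise the 2 with the smallest p in any comparison, are named, some by log2 change alone. The genes and lists were chosen with earlier results of these data known. Other genes were chosen after their values were seen. Replicates were compared by a chi-square test of their counts, and every pair differed by more than sampling noise (at least 7.59 per degree of freedom). Counting error covers reads and not molecules.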

Additional observations from a re-analysis of the deposited data

How the results depend on the processing

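With all 8 libraries no member was called. In KPC Scr against sham, 1 was called with no filter on low counts, 3 with DESeq2, 1 with KPC Scr libraries 1 and 3 left out together, and 0 to 21 with each library left out in turn. In miR-27a-KD against KPC Scr, DESeq2 called 6, and leaving out each library gave 0 to 21, the 21 without KPC Scr library 2 in both comparisons. The members' median log2 change in KPC Scr against sham was 0.12 with KPC Scr libraries 1 and 3 left out, and -0.54 to 0.15 with single libraries left out (0.15 without sham library 1). In miR-27a-KD against KPC Scr it was -0.10 without KPC Scr libraries 1 and 3. All genes called in KPC Scr against sham numbered 215. There were 2074 with DESeq2, 133 with legacy edgeR, 16 with the replicate block, 4 with the 2 groups alone, 493 without KPC Scr libraries 1 and 3, and 0 to 6908 with single libraries left out. In miR-27a-KD against KPC Scr, 7 became 1 with library sizes only, 11 with no filter, 2320 with DESeq2, 1 with legacy edgeR, 0 with the replicate block, 0 with the 2 groups alone, 100 without KPC Scr libraries 1 and 3, and 0 to 7313 with single libraries left out. In miR-27a-KD against sham, 1 became 2 with library sizes only, 2 with no filter, 25 with DESeq2, 0 with the replicate block, 101 with the 2 groups alone, 103 without KPC Scr libraries 1 and 3, and 0 to 32 with single libraries left out. The cause of these differences was not tested. Deviations of same-numbered libraries from their group means correlated at -0.064 to 0.172, and those of other pairs at -0.149 to 0.068. The highest was that of miR-27a-KD and KPC Scr libraries 3. With 2 or 3 libraries in a group, this cannot decide whether equal numbers share more than a number. The replicate block called 0 members in each comparison. With 2 sham libraries, and KPC Scr libraries that differ, small changes cannot be shown.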
